A study of Oryctolagus cuniculus with 24 samples.

Results

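IL2, IL15 and IL21 are cytokines whose receptors share the common gamma chain, IL2RG, and the levels of their mRNAs were followed in rabbit blood cells. The 3 genes were found on the array by symbol among the probes that are not controls, and they were measured by 13 of 42089 probes and make up 3 of 28890 genes. IL2 had 4 probes, IL15 had 7 and IL21 had 2.

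Peripheral blood mononuclear cells (PBMCs: lymphocytes, monocytes and a few other cells of the blood) came from 4 female adults of the New Zealand White breed, called rabbits 1, 2, 4 and 5 here. Cells of each rabbit were kept in the same serum-containing medium with buffer alone (mock-stimulated), with the bacterial cell wall component LPS at 1 µg/mL, or with PMA at 10 ng/mL together with ionomycin at 1 µg/mL (PMA-Ionomycin), and were harvested after 4 h (T4) or 24 h (T24). RNA of each culture was hybridised to 1 array of its own, which gave 24 arrays in 6 groups of 4, every rabbit being present in every group. Nothing was sorted, so that in these mixed cells a lower number of cells of a type cannot be told apart from less RNA per cell.

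IL2 is made mainly by activated T cells and drives their proliferation and survival. IL21 comes mainly from activated CD4 T cells, among them follicular helper T cells, and acts on B cells, T cells and NK cells. IL15 is made mainly by monocytes, macrophages and dendritic cells, which present it on the IL15 receptor alpha chain to NK cells and memory T cells. All 3 cytokines signal through the kinases JAK1 and JAK3, IL2 and IL15 chiefly to STAT5 and IL21 chiefly to STAT3. PMA activates protein kinase C and ionomycin lets calcium into the cell, and together they bypass the T cell receptor and turn on the AP-1, NF-kappaB and NFAT factors that bind the IL2 promoter. LPS is sensed through TLR4, in blood mostly by monocytes.

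The probes are 60-base oligonucleotides, and their sequences are shown because they decide which part of each transcript was read and how independent the readings of a gene are. In the files they lie on chromosome 15 of the oryCun2 build, on the minus strand, and they are printed 5′ to 3′ with capitals for the bases that another probe of the same gene also reads. The IL2 probes tile bases 196 to 395 of the transcript, at chr15:98312704-98314859, and each shares 20 bases with a neighbour:
A_04_P003999: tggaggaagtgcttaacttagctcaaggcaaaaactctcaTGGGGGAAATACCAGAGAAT
A_04_P003998: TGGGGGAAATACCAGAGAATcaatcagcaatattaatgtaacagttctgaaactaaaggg
A_04_P003997: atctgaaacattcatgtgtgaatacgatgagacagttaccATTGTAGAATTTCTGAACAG
A_04_P003996: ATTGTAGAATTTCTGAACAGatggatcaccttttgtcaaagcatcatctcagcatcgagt

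The second IL2 probe, A_04_P003998, covers 2016 bases of the genome with its 60 bases and so crosses an exon junction over 1956 skipped bases, while the other 3 lie within exons. The 2 IL21 probes share 30 bases. They read bases 296 to 385 of the transcript at chr15:98465843-98467209, and A_04_P058613 crosses an exon junction over 1277 skipped bases:
A_04_P058614: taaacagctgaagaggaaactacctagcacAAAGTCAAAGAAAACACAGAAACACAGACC
A_04_P058613: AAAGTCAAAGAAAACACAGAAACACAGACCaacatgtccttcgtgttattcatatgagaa

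The probed stretches of IL2 and IL21 are separated by 150983 bases. IL15 lies elsewhere on the same chromosome, at chr15:22774048-22776817. Of its 7 probes, 6 cross the same exon junction over 2603 skipped bases and differ from their neighbours by a shift of 1 base, and A_04_P002157 and A_04_P075350 have the same sequence. The 6 shifted probes are therefore close to repeated readings of 1 site, and only A_04_P002156, from base 521 of the transcript, reads another. The first and the last of the 6 and the separate probe are:
A_04_P075351: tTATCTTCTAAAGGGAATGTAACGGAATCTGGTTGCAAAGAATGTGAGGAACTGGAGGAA
A_04_P075347: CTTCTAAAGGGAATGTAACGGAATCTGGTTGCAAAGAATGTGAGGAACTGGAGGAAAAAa
A_04_P002156: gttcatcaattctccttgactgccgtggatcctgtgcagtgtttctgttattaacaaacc

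The level of a gene is given throughout as the log2 median spot signal minus the median of all non-control spots of the array, averaged over the probes of the gene, so that 0 is the middle of the array. A gene was called changed (DE) when its limma p, adjusted by Benjamini-Hochberg over all 28890 genes, was under 0.05. A reading was counted as detected when the scanner software marked the spot as well above background, which held for 51.4 to 62.3% of the spots of an array. The weakest probe so marked lay between -1.16 and -0.39 on the log2 level scale, depending on the array. All 6 groups were present on each of the 3 slides of 8 arrays. Of the 11 T cell markers found by name, all but 1 or 2 were well above background on some array of each group, and the same held for all but at most 1 of 13 monocyte markers. The CD3 chains were not among the genes found by name. None of the 18 groups of 4 cytokine values had an outlying sample by Dixon's test, which flags only extreme values in groups this small.

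**Figure D1:**
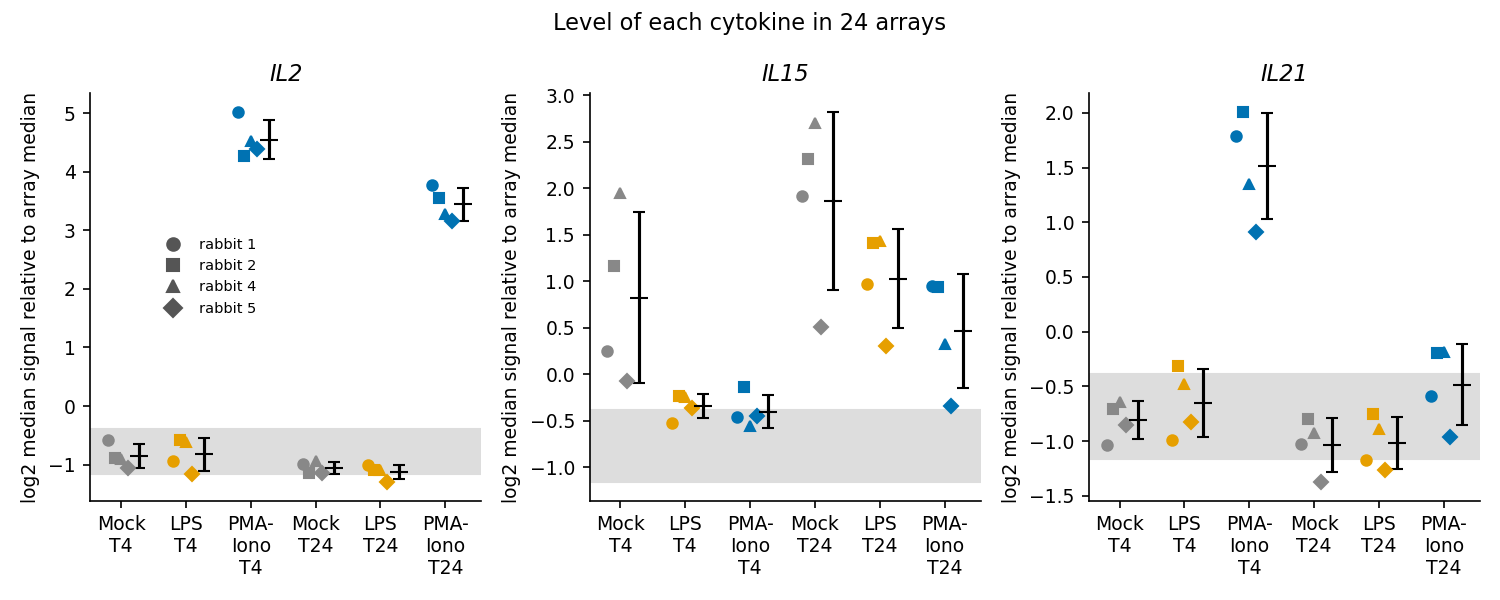
Level of IL2, IL15 and IL21 on each of the 24 arrays (y axis, log2 median signal relative to the array median; a different scale in each panel) in the 6 groups (x axis), with a marker shape for each rabbit and the mean ± SD of 4 rabbits in black. The grey band spans the weakest signals that were well above background on the 24 arrays: IL2 rose above it only after PMA-Ionomycin stimulation, IL21 mainly at T4 after PMA-Ionomycin stimulation, and IL15 lay above it in all mock-stimulated samples.

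IL2 mRNA was close to the detection limit in mock-stimulated and LPS-stimulated PBMCs and abundant after PMA-Ionomycin stimulation. At T4 the level after PMA-Ionomycin stimulation was 5.02, 4.26, 4.52 and 4.38 in rabbits 1, 2, 4 and 5. The mock-stimulated samples of the same time gave -0.57, -0.88, -0.90 and -1.06, so that the groups did not overlap, which held in the higher direction for 12.2% of all genes. The fitted log2 FC was 5.40 ± 0.16 (SE, adjusted p = 1.75e-16, limma). Among the mock-stimulated readings only 1 of 16, by A_04_P003998 in rabbit 1, was well above background. With the mock level set no lower than the weakest detected signal of each array, IL2 was at least 39.4-fold higher.

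At T24 the level of IL2 after PMA-Ionomycin stimulation was 3.78, 3.54, 3.28 and 3.15 in rabbits 1, 2, 4 and 5. The corresponding mock values were -0.99, -1.15, -0.94 and -1.14, and none of their 16 readings was well above background. The groups did not overlap, which held in the higher direction for 21.2% of all genes. IL2 was therefore at least 20.8-fold higher (fitted log2 FC 4.49 ± 0.16, adjusted p = 1.45e-14, limma). The gain over mock was 0.90 ± 0.23 log2 units smaller at T24 than at T4, which is the interaction of stimulation and time (adjusted p = 0.0055, limma). In the PMA-Ionomycin samples themselves the level fell by 1.11 ± 0.16 log2 units from T4 to T24 (adjusted p = 8.26e-06), and it was lower at T24 in 4 of 4 rabbits. Within slides 1, 2 and 3 the difference from mock was 5.45, 5.11 and 5.90 at T4 and 4.82, 4.53 and 4.37 at T24. The interaction was no longer called without rabbit 4 (-0.81, adjusted p = 0.0794). Background-subtracted signals scaled to the 75th percentile of each array, called background-subtracted signals from here on, gave a log2 FC of 8.39 at T4 and 7.34 at T24, and the interaction was not called there (-1.05, adjusted p = 0.0977).

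No change of IL2 was detectable after LPS stimulation. The LPS-stimulated samples gave -0.94, -0.58, -0.62 and -1.16 at T4 and -1.01, -1.09, -1.09 and -1.30 at T24, in the same order of rabbits. They overlapped with the mock values at both times, and only 1 of their 32 readings was well above background. The fitted difference was 0.03 at T4 (95% confidence interval -0.32 to 0.37, adjusted p = 0.955) and -0.07 at T24 (-0.41 to 0.27, adjusted p = 0.98). These intervals speak of signal near the detection limit, at which a change in a very low level would not be seen.

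IL21 followed IL2 at T4 but was nearly back at the mock level at T24. The T4 level after PMA-Ionomycin stimulation was 1.79, 2.01, 1.35 and 0.91 in rabbits 1, 2, 4 and 5, and all 8 readings were well above background. The mock-stimulated samples gave -1.04, -0.70, -0.64 and -0.86, and none of their 8 readings was detected. IL21 was at least 4.86-fold higher (fitted log2 FC 2.32 ± 0.22, adjusted p = 2.32e-08, limma). The difference was larger in rabbits 1 and 2 (2.82 and 2.71) than in rabbits 4 and 5 (2.0 and 1.76).

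At T24 IL21 after PMA-Ionomycin stimulation was at -0.59, -0.19, -0.19 and -0.97, against -1.03, -0.80, -0.93 and -1.38 in the mock-stimulated samples of the same rabbits. The groups overlapped, but the stimulated sample was the higher one in 4 of 4 rabbits, by 0.41 to 0.74 log2 units. Of the stimulated readings 5 of 8 were well above background and of the mock readings none. The log2 FC of 0.55 ± 0.22 missed the threshold (adjusted p = 0.0535, limma) and passed it when rabbit was used as a block (adjusted p = 0.00451). Under normexp background correction with quantile normalization it was 0.32 (adjusted p = 0.214).

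The drop of IL21 between the times was clear. Its gain over mock was 1.77 ± 0.30 log2 units smaller at T24 than at T4 (adjusted p = 0.000113, limma). Within the PMA-Ionomycin samples the level fell by 2.0 ± 0.22 log2 units (adjusted p = 8.58e-08). Within slides 1, 2 and 3 the difference from mock was 2.54, 1.75 and 2.49 at T4 and 0.57, 0.83 and 0.22 at T24. Signals with the background subtracted gave a log2 FC of 4.96 at T4, 1.38 at T24 and an interaction of -3.58.

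After LPS stimulation IL21 was not detected. None of the 16 LPS readings was well above background, and the levels were between -0.99 and -0.31 at T4 and between -1.26 and -0.76 at T24. Against mock the fitted difference was 0.16 at T4 (95% confidence interval -0.29 to 0.61, adjusted p = 0.775) and 0.01 at T24 (-0.43 to 0.46, adjusted p = 0.998).

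IL15 went the other way. It was well above background with all 7 probes in every mock-stimulated sample and was lower after PMA-Ionomycin stimulation at both times. The mock level at T4 was 0.25, 1.17, 1.95 and -0.08 in rabbits 1, 2, 4 and 5, a wide spread for 1 group. After PMA-Ionomycin stimulation it was -0.46, -0.14, -0.55 and -0.45, below every mock sample, as held in the lower direction for 9.22% of all genes, with 13 of 28 readings still well above background. The log2 FC was -1.23 ± 0.41 (2.34-fold lower, adjusted p = 0.0331, limma), and single rabbits differed by -0.71, -1.31, -2.50 and -0.38. This call was lost without rabbit 1 (log2 FC -1.40, adjusted p = 0.0808), rabbit 2 (-1.20, 0.14) or rabbit 4 (-0.80, 0.29) and with slide as a block (adjusted p = 0.0595).

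At T24 the mock level of IL15 was 1.92, 2.31, 2.70 and 0.50. PMA-Ionomycin stimulation gave 0.95, 0.94, 0.33 and -0.35, lower in 4 of 4 rabbits although the groups overlapped through the low mock value of rabbit 5. The log2 FC was -1.39 ± 0.41 (2.63-fold lower, adjusted p = 0.00999, limma), and it was not called without rabbit 2 (-1.40, adjusted p = 0.0554) or rabbit 4 (-1.07, adjusted p = 0.0841). The change against mock did not differ detectably between the times (difference -0.17, 95% confidence interval -1.37 to 1.04, adjusted p = 0.92). Within slides 1, 2 and 3 the difference was -0.27, -1.55 and -1.63 at T4 and -0.66, -0.98 and -2.32 at T24. Signals with the background subtracted gave -2.47 at T4 and -2.10 at T24.

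With LPS at T4 IL15 was -0.52, -0.24, -0.24 and -0.36, again below every mock sample, and only 10 of 28 readings were well above background. The groups did not overlap, which held in the lower direction for 5.04% of all genes in this comparison. The log2 FC of -1.16 ± 0.41 missed the threshold (adjusted p = 0.175, limma) and passed it with rabbit as a block (adjusted p = 0.0321). At T24 the LPS level was 0.97, 1.41, 1.43 and 0.30, lower than mock in 4 of 4 rabbits, with a log2 FC of -0.83 ± 0.41 that was not called (adjusted p = 0.48). The LPS and PMA-Ionomycin samples differed by -0.06 at T4 (PMA-Ionomycin minus LPS, 95% confidence interval -0.92 to 0.79) and by -0.56 at T24 (-1.41 to 0.29), and neither was called. At T4 most readings of both stimulated groups were not well above background, so that these values are limited by the detection limit and a difference below it would not be seen. Within slides 1, 2 and 3 the LPS difference was -0.16, -1.34 and -1.61 at T4 and -0.64, -1.06 and -0.88 at T24. Signals with the background subtracted gave -2.27 for LPS at T4, also not called (adjusted p = 0.115).

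**Figure D2:**
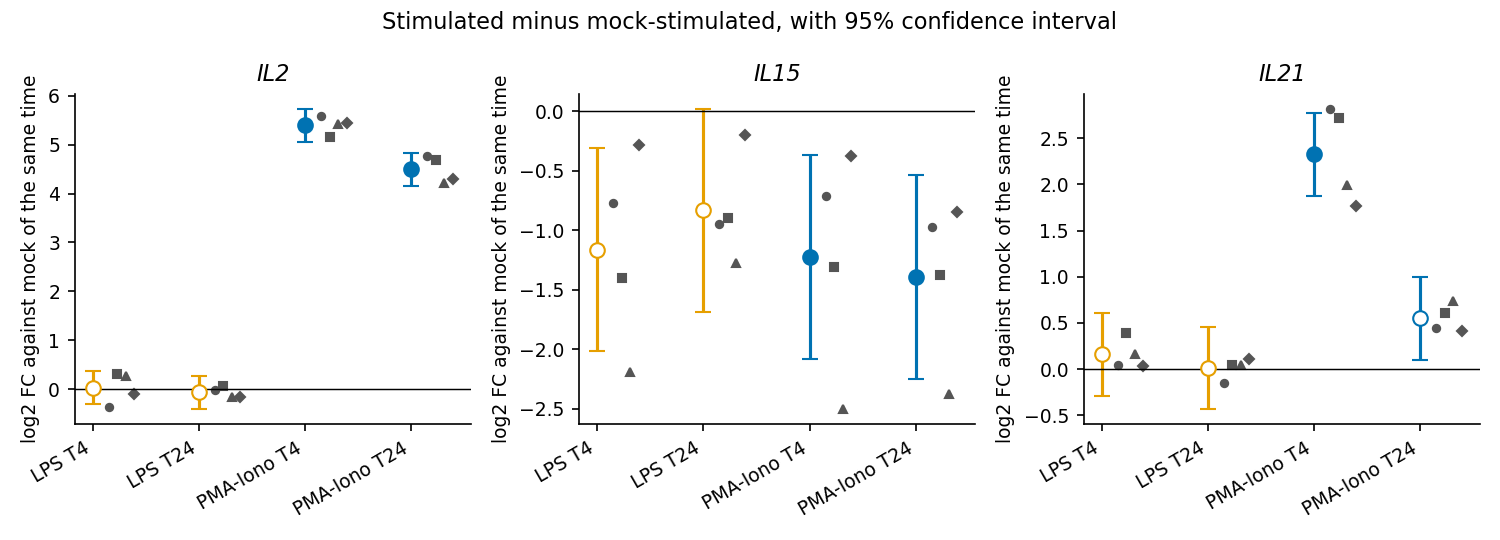
Difference of each stimulated group from the mock-stimulated group of the same time (y axis, log2 FC; a different scale in each panel) for LPS in orange and PMA-Ionomycin in blue at T4 and T24 (x axis), with the 95% confidence interval of the limma fit. Filled circles passed an adjusted p of 0.05, open circles did not, and the small grey markers are the differences of rabbits 1 (circle), 2 (square), 4 (triangle) and 5 (diamond): all IL15 differences lie below 0, and all PMA-Ionomycin differences of IL2 and IL21 lie above it.

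Set against the whole array, PMA-Ionomycin at T4 called 3 of the 3 cytokines, with IL2 and IL21 higher and IL15 lower, where 22.8% of all genes were called in either direction, 13.4% higher and 9.33% lower. At T24 it called IL2 higher and IL15 lower, where 33.6% of all genes were called, 22.1% higher and 11.5% lower. These shares of higher and lower genes depend on the scaling: at T24 6394 of 9714 called genes were higher, against 4680 of 10110 with background-subtracted signals, 4984 of 9437 with quantile normalization, 4934 of 9322 with normexp and quantile normalization and 5339 of 10457 in the deposited table. At T4 3883 of 6579 were higher, against 3296 of 7006 with background-subtracted signals. LPS called none of them at T4 or T24 in the fit without a block or array weights, where 1.02% and 1.23% of all genes were called. IL15 was called after LPS at T4 with array weights (-1.47, adjusted p = 0.0364) and with rabbit as a block, where the number of genes called rose from 296 to 1229. IL2 and IL21 were among the 8.17% of genes whose response to PMA-Ionomycin was called lower at T24 than at T4. The interaction of LPS and time was called for none of the 3 and for 1.95% of all genes.

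Ordered by mean level, IL2 was highest after PMA-Ionomycin at T4 (4.55 ± 0.33, SD, n = 4), then after PMA-Ionomycin at T24 (3.44 ± 0.28), and these neighbours differed. The other 4 groups lay between -0.83 and -1.12 and no pair of them differed (adjusted p between 0.145 and 0.98, limma). IL21 was highest after PMA-Ionomycin at T4 (1.51 ± 0.49) and next at -0.48 ± 0.37 after PMA-Ionomycin at T24, a gap of 2.0 log2 units. Its neighbour in this order, LPS at T4 (-0.65 ± 0.31), did not differ from it beyond the spread (adjusted p = 0.52). The mock and LPS groups, in which IL21 was not detected, have no order among themselves. The difference of PMA-Ionomycin and mock at T24 had a 95% confidence interval of 0.10 to 1.00 and was called with rabbit as a block (adjusted p = 0.00451). The same held for PMA-Ionomycin against LPS at T24 (0.54 ± 0.22, adjusted p = 0.0561, and 0.0049 with rabbit as a block).

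The order of IL15 was led by the unstimulated cells at T24. It ran from mock at T24 (1.86 ± 0.96) over LPS at T24 (1.03 ± 0.53), mock at T4 (0.82 ± 0.92), PMA-Ionomycin at T24 (0.47 ± 0.61) and LPS at T4 (-0.34 ± 0.13) to PMA-Ionomycin at T4 (-0.40 ± 0.18). No neighbours in this order differed beyond their spread, but PMA-Ionomycin at T24 and LPS at T4 (0.81 ± 0.41, adjusted p = 0.113, limma) did so with rabbit as a block (adjusted p = 0.0329). Groups farther apart did: mock at T24 lay 2.26 ± 0.41 log2 units above PMA-Ionomycin at T4 (adjusted p = 0.000116, limma) and 2.20 ± 0.41 above LPS at T4 (adjusted p = 0.000323). The level was higher at T24 than at T4 in every rabbit under every condition. That rise was called after LPS (1.37 ± 0.41, adjusted p = 0.0136), where 37.6% of all genes were called between the times. It was not called in mock (1.04 ± 0.41, adjusted p = 0.117, with 12.5% of all genes called) or after PMA-Ionomycin (0.87 ± 0.41, adjusted p = 0.113, with 33.7% called). With rabbit as a block both were called (adjusted p = 0.0198 and 0.0265), as they were without rabbit 5 (1.19 and 1.12, adjusted p = 0.0152 and 0.00908). The rise after LPS was not called without rabbit 1 (1.33, adjusted p = 0.0712) or rabbit 2 (1.27, 0.0851).

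The single probes of a gene had 1 direction after PMA-Ionomycin stimulation at T4. For IL2 they ranged from a log2 FC of 4.82 for A_04_P003998 to 5.87 for A_04_P003996 after PMA-Ionomycin at T4. The interaction with time was called by all but A_04_P003998 (-0.84, adjusted p = 0.0949, limma). In mock at T4 A_04_P003998 read 0.34 in rabbit 1 and -0.88, -1.0 and -1.14 in rabbits 2, 4 and 5. That 1 high mock reading enters both its log2 FC at T4 and its interaction. The 2 IL21 probes gave 2.22 and 2.42 at T4. For IL15 the fitted log2 FC of the 7 probes ranged from -1.06 (A_04_P002157) to -1.56 (A_04_P002156, the probe at a separate site) at T4, and 3 of the 7, all at the shifted site, were not called (adjusted p between 0.0516 and 0.083). A_04_P002157 and A_04_P075348 were well above background on none of the 4 PMA-Ionomycin arrays of T4, so that their T4 values are limited by the detection limit. A_04_P002156 was well above background on 4 of 4 of these arrays. The IL15 probes of identical sequence differed by a mean of 0.24 ± 0.18 (SD over 24 arrays) log2 units, and A_04_P002157 was the higher one on only 2 of 24 arrays. The mean is thus mostly a steady offset, and the SD measures the scatter between spots of 1 sequence.

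**Figure D3:**
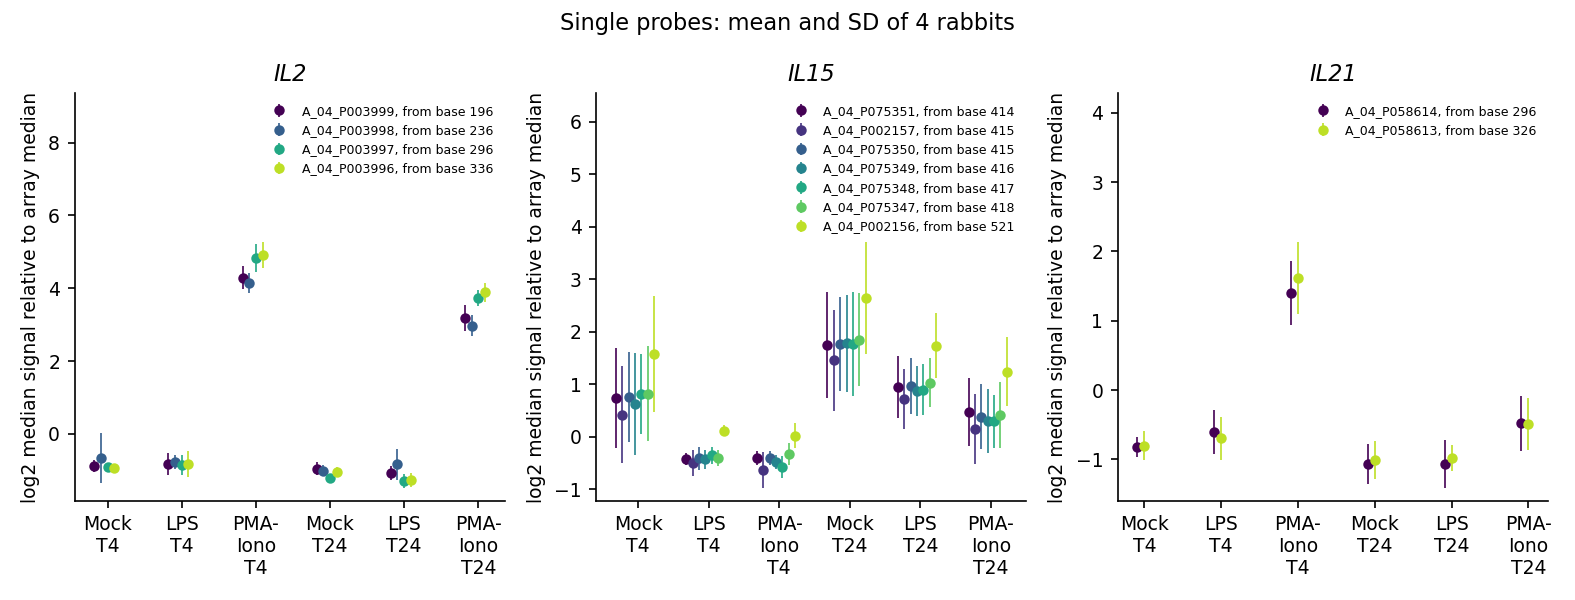
Mean level of each single probe (y axis, log2 median signal relative to the array median; a different scale in each panel) in the 6 groups (x axis), with the SD of 4 rabbits as bars and the probe's first base in the transcript in the legend. All probes of a gene move in the same direction between mock and PMA-Ionomycin at T4, and the level of 1 probe cannot be set against that of another.

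The receptors were measured in part. IL2RG, the chain common to the 3 receptors, and IL21R, the private chain of the IL21 receptor, were the 2 of 5 receptor chains found by name, each with a single probe. IL2RG was not called at T4 of PMA-Ionomycin stimulation (log2 FC 0.02 ± 0.46, adjusted p = 0.991) and was lower at T24, at 2.34 ± 0.64 against 4.23 ± 0.72 in mock (log2 FC -1.89 ± 0.46, adjusted p = 0.00199, limma, lower in 4 of 4 rabbits). IL21R gave 0.43 ± 0.39 at T4 and -0.71 ± 0.39 at T24, neither of which was called. LPS called neither chain. It called 1.02% of all genes at T4 and 1.23% at T24, and these shares stand beside all LPS counts of the gene lists below.

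Among the other cytokines and receptors of the common gamma chain family, 4 of 7 were found. IL4, the T helper cytokine that drives class switching in B cells, was 6.79 ± 0.39 log2 units higher after PMA-Ionomycin at T4 (8.37 ± 0.11 against 1.58 ± 0.62) and 4.33 ± 0.39 higher at T24 (adjusted p = 1.13e-11 and 4.02e-09, limma). IL9, another T cell cytokine, rose by 1.01 and 1.10 log2 units. IL7R, the receptor that keeps naive T cells alive, was lower at T24 (-1.21 ± 0.34, adjusted p = 0.00643) and not called at T4. IL4R was called at neither time. LPS called none of the 4.

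Among the kinases and factors through which the 3 cytokines signal, STAT5A, the factor activated by IL2 and IL15, was higher by 1.73 ± 0.26 at T4 and by 0.91 ± 0.26 log2 units at T24 of PMA-Ionomycin stimulation. JAK1 was lower, with log2 FCs of -0.79 ± 0.16 and -0.83 ± 0.16. STAT3 was called at neither time, but its probes disagreed in direction at T24, with A_04_P059867 at -0.70 and the others between 0.47 and 0.63. Of the feedback regulators, 3 of 6 were found: SOCS3 rose at T4 (2.14 ± 0.41) and SOCS1 at T24 (1.07 ± 0.27), while SOCS2 was lower at T24 (-1.55 ± 0.55). All calls of this paragraph had an adjusted p between 1.75e-05 and 0.0316 (limma), and LPS called none of these 6 genes.

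Of the genes known to be induced through the IL2 receptor, 9 of 15 were found. At T4 of PMA-Ionomycin stimulation 6 were higher and 1 was lower, beside 13.4% and 9.33% of all genes, with a median log2 FC of 1.04 over the 9 beside 0.05 over all genes tested. The higher ones were LIF (3.49 ± 0.20), OSM (2.60 ± 0.45), both cytokines of the IL6 family, the cell cycle kinase CDK6 (1.84 ± 0.24), IFNG (1.19 ± 0.23), the survival kinase PIM1 (1.04 ± 0.18) and the survival factor BCL2 (0.73 ± 0.15). PRF1, the pore-forming protein of cytotoxic cells, was lower (-0.76 ± 0.25). At T24 7 were higher and none was lower, beside 22.1% and 11.5% of all genes, with a median of 0.83 beside 0.03 over all genes. PRF1 was then 0.96 ± 0.25 higher, together with OSM (1.31), IFNG (1.26), CDK6 (1.25), TNFRSF8 (at least 1.51-fold), LTA (0.65) and BCL2 (0.56). The value of IFNG averages 2 probes that disagree, 1 at -0.79 and 1 at 3.16 at T4, and -1.34 and 3.85 at T24. LPS called none of the 9 at either time, beside 1.02% of all genes at T4 and 1.23% at T24.

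Of the factors that bind the IL2 promoter, with their inhibitors and the EGR factors, 15 of 22 were found. At T4 of PMA-Ionomycin stimulation 11 were higher and none lower, beside 13.4% and 9.33% of all genes (median log2 FC 1.37 beside 0.05 over all genes). At T24 6 were higher and 2 lower, beside 22.1% and 11.5% of all genes (median 0.17 beside 0.03). NFKBID, a nuclear inhibitor of NF-kappaB, changed most at T4 (6.02 ± 0.25, 65-fold), followed by BATF, an AP-1 factor of T cells (3.12 ± 0.28), and the immediate early factors EGR1 (2.33 ± 0.13) and EGR2 (2.08 ± 0.12). The EGR1 value is the mean of 2 probes that differed in size, A_04_P013751 (1.09) and A_04_P094397 (3.57). At T24 the largest values were BATF (2.91 ± 0.28), the inhibitor NFKBIA (-1.51 ± 0.40), NFKBID (1.27 ± 0.25) and the AP-1 factor JUN (-1.14 ± 0.27, after 1.62 ± 0.27 at T4). LPS called none of the 15, beside 1.02% of all genes at T4 and 1.23% at T24.

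T cell activation genes were higher in 7 of 9 at T4, beside 13.4% of all genes, and in 6 of 9 at T24, beside 22.1%, with none lower. LPS called none of them. The largest T4 values were for the inhibitory receptor CTLA4 (2.53 ± 0.17), the costimulatory ligand CD70 (1.81 ± 0.33), the costimulatory receptor TNFRSF9 (1.60 ± 0.17) and the inhibitory receptor LAG3 (1.55 ± 0.24). At T24 CD70 (5.26 ± 0.33), LAG3 (4.45 ± 0.24) and CTLA4 (3.21 ± 0.17) had larger differences from mock, and the interaction with time was called for each (3.46, 2.89 and 0.69, adjusted p = 5.09e-06, 1.01e-06 and 0.043, limma). CD28, the costimulatory receptor that acts beside the T cell receptor, was well above background at T4 on 4 of 4 stimulated arrays and on none of the mock arrays (at least 2.42-fold higher), and it was not called at T24. Of 11 T cell lineage markers, none was higher and 1 lower at T4, and 2 were higher and 3 lower at T24, beside 22.8% and 33.6% of all genes called. Their summed level ranged from 4.24 to 4.83 in mock and from 4.24 to 4.66 after PMA-Ionomycin at T4, and from 3.80 to 4.42 and 4.15 to 4.46 at T24.

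**Figure D4:**
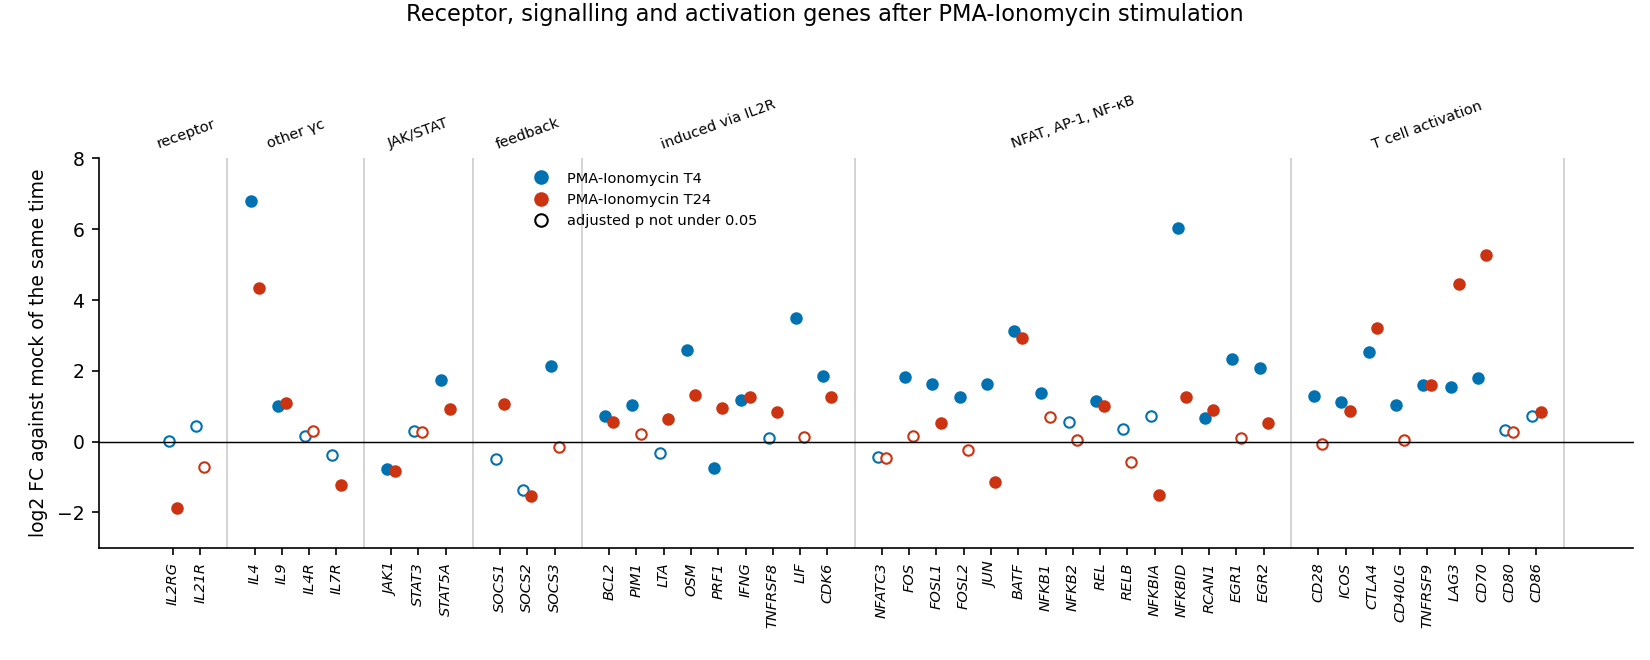
Log2 FC against mock of the same time (y axis) for receptor, signalling and activation genes of the lists (x axis, grouped by role) after PMA-Ionomycin stimulation at T4 in blue and T24 in red. Filled circles passed an adjusted p of 0.05 and open circles did not: the promoter factors and inhibitors hold 11 filled circles above 0 at T4 and 6 at T24, and CD70 and LAG3 are higher at T24 than at T4.

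Of the genes tied to follicular helper T cells, a main source of IL21, 4 of 5 found were called at T4 and 3 of 5 at T24 of PMA-Ionomycin stimulation, beside 22.8% and 33.6% of all genes. At T4 of PMA-Ionomycin stimulation IRF4 (2.07 ± 0.22), CXCR5 (0.96 ± 0.29) and BCL6 (0.83 ± 0.29) were higher and SH2D1A was lower (-0.74 ± 0.17), of 5 found among 8. At T24 IRF4 (0.57 ± 0.22) and PDCD1 (0.56 ± 0.18) were higher and SH2D1A, an adaptor of T cell signalling, was at least 1.63-fold lower, well above background on no stimulated array and on 4 of 4 mock arrays. LPS called none.

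Of the genes of the interferon response, to which IL15 also belongs, with the factors and receptor chains behind it, 11 of 16 were found. At T4 of PMA-Ionomycin stimulation 5 were lower and 2 higher, beside 9.33% and 13.4% of all genes (median log2 FC -0.88 beside 0.05 over all genes). IFIT3 (-2.61 ± 0.44) and the chemokine CXCL10 (-2.54 ± 0.44) were lowest, and the interferon factors IRF1 and IRF8 (1.48 ± 0.28 and 1.48 ± 0.29) were higher. At T24 3 were lower and none higher, beside 11.5% and 22.1% of all genes, and 2 of the 3 were the interferon receptor chains IFNGR1 (-2.59 ± 0.37) and IFNAR1 (-1.40 ± 0.18). IFNGR1 was also the 1 gene of the list called after LPS at T4 (-1.69 ± 0.37, adjusted p = 0.0384, limma), where 1.02% of all genes were called. None was called after LPS at T24 (1.23% of all genes), and the interaction of LPS and time was called for 1 of the 11 (1.95% of all genes).

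Monocyte markers, of the cells that make most of the IL15 of blood, moved in the same direction as IL15 in several comparisons. Of 13 found among 16, 5 were lower and none higher after PMA-Ionomycin at T4, beside 9.33% of all genes lower, and 11 were lower and none higher at T24, beside 11.5%. LPS called 2 lower at T4 and 1 at T24, where it called 1.02% and 1.23% of all genes in either direction. Their summed log2 level ranged from 7.61 to 8.58 in mock, 6.65 to 7.19 with LPS and 6.45 to 7.69 with PMA-Ionomycin at T4. At T24 it was 8.66 to 9.86, 8.47 to 9.64 and 6.41 to 7.30. CD14, the LPS co-receptor of monocytes, had a log2 FC of -3.01 at T4 and -3.27 at T24 of PMA-Ionomycin stimulation and of -1.55 with LPS at T4, where CSF1R, the receptor of the monocyte growth factor, was at -1.44. MPEG1 was the marker called with LPS at T24 (-2.17 ± 0.41). The part of these markers in the IL15 values was not tested.

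**Figure D5:**
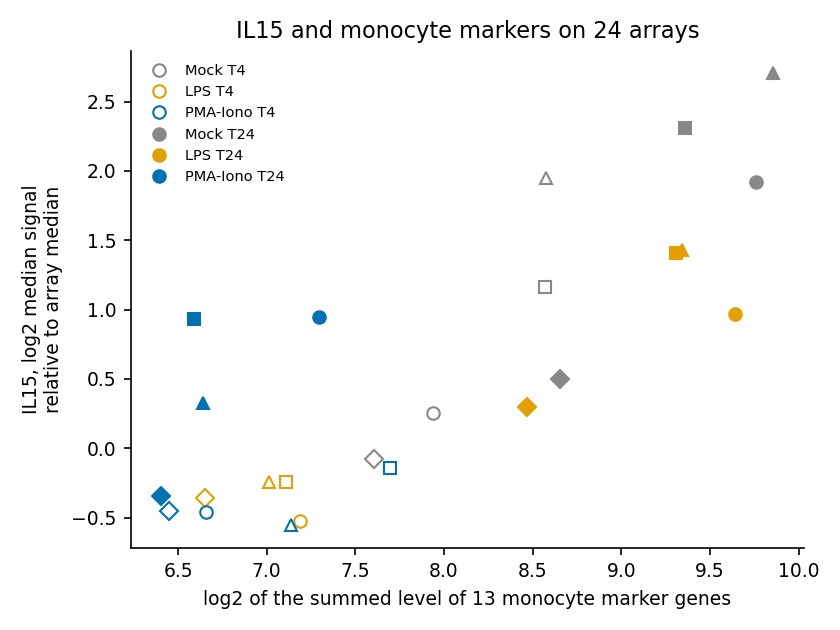
Level of IL15 (y axis, log2 median signal relative to the array median) against the log2 of the summed level of 13 monocyte marker genes (x axis) on the 24 arrays, with open markers for T4, filled markers for T24, a colour for each stimulation and a marker shape for each rabbit as in the plot of levels. Mock and LPS samples at T24 lie at the right, the stimulated samples at T4 at the lower left, and the PMA-Ionomycin samples at T24 at low marker levels with IL15 between -0.35 and 0.95.

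Markers of other cell types were called as well. The summed level of 8 B cell markers ranged from 8.40 to 9.38 in mock and from 6.70 to 7.50 after PMA-Ionomycin at T4, with 5 markers lower and 1 higher, beside 9.33% and 13.4% of all genes. At T24 it ranged from 7.63 to 9.81 in mock and from 7.38 to 8.31 after PMA-Ionomycin, with 4 lower and 1 higher, beside 11.5% and 22.1% of all genes. The same shares stand behind the PMA-Ionomycin counts of the other cell types that follow. All 5 platelet markers were lower at T4 of PMA-Ionomycin stimulation, at a summed level of 3.34 to 4.51 against 5.72 to 6.93. At T24 the direction was opposite, with 2 of 5, ITGB3 (0.84, with its 5 probes between 0.03 and 1.15) and TUBB1 (1.21), higher and a summed level of 3.25 to 3.82 against 2.36 to 3.02 in mock. The 2 NK cell markers found were higher at T24 (KLRK1 by 0.75 and NCR3 by 0.84 log2 units). Of the 2, 1 was well above background on no mock array at T24, so that its difference is limited by the detection limit. The mean level over the 24 arrays was -0.62 for KLRK1 and 0.83 for NCR3. Neutrophil markers were lower in 1 of 5 at T4 and 3 of 5 at T24, with none higher. Their summed level ranged from 8.19 to 9.18 after PMA-Ionomycin and from 7.45 to 8.21 in mock at T4, and from 10.0 to 10.9 and 8.89 to 12.3 at T24. The mock sample of rabbit 5 at T24, which also had the lowest IL15 level of its group, was at 8.89, and the other 3 were at 11.4 to 12.3. MMP9 made up most of this sum, with a mean level of 9.70 over the 24 arrays, beside 1.53 for CXCR2, 1.05 for MPO and less for CAMP and LTF. The sum therefore follows 1 gene and is no measure of the neutrophil markers as a set. Of the 5 markers LPS called 2 lower at T24, MPO and CAMP, where it called 1.23% of all genes. Of the 6 erythrocyte markers, SLC4A1 alone was called, lower after PMA-Ionomycin at T24. Their part in the values of IL2, IL15 and IL21 was not tested.

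IL2 and IL21 are neighbours on the rabbit genome. In the RefSeq annotation of the mOryCun1.1 assembly BBS12, FGF2 and NUDT6 follow on the side of IL21 and ADAD1 and BLTP1 on the side of IL2. Of 8 genes of this region found by name, 3 were higher and 1 was lower at T4 of PMA-Ionomycin stimulation and as many at T24, beside 22.8% and 33.6% of all genes called. SPRY1, an inhibitor of growth factor signalling (at least 6.01-fold at T4 and 2.56-fold at T24), and the growth factor FGF2 (at least 2.46-fold at T4, not called at T24) were not well above background in mock at T4. BBS12 was higher at both times (0.56 and 1.41), NUDT6 was 1.29 higher at T24, and BLTP1 was lower at both times (-0.52 and -0.90). ADAD1, the nearest gene beside IL2, was well above background on none of the mock, LPS or PMA-Ionomycin arrays. Of the 7 neighbours of IL15 found, INPP4B was higher at T24 (0.77 ± 0.20), and RNF150 was called at T4 without being well above background in either group.

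The genes whose level followed each cytokine most closely over the 24 arrays were named by Pearson's r among the 7233 genes with a symbol that were well above background on at least 4 arrays. These arrays share rabbits, slides and the 6 groups, so that r describes the likeness of the patterns and no more. For IL2 the closest were TAC1, the tachykinin precursor (r = 0.992), FASLG, the death ligand of activated T cells (0.979), GNL2, METTL13 and PPRC1. For IL21 they were GJA1 (0.965), the growth factor AREG (0.953), FGF2 (0.951), C4H21orf91 and the T helper cytokine IL13 (0.935), which was not well above background in mock and was at least 137-fold higher at T4 and at least 4.32-fold higher at T24 after PMA-Ionomycin stimulation. For IL15 the likeness was looser, with ACBD5 at 0.898, then SLC35A5, ANXA4, SPOPL and the factor MITF (0.873). ANXA4 and MITF fell with IL15 after PMA-Ionomycin at T4 (-1.23 ± 0.30 and -1.93 ± 0.28), and MITF was also called after LPS at T4 (-1.33 ± 0.28, adjusted p = 0.0337, limma).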

How the data were processed

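Total RNA of 24 PBMC cultures (4 rabbits, 3 conditions, 2 times) was hybridised to 1-colour Agilent rabbit arrays to which the study had added probes for immune genes, with 1 array per culture. The authors deposited, per the file headers, the scanner intensity of every spot as read by Feature Extraction 10.7.3.1, not normalized, and a table of log2 values. That table equals the log2 median signal minus a constant per array (column medians -1.11 to -0.811) and served as an alternative. Here the median signal was used without background subtraction, each array's log2 values were centred on their median over spots that are not controls, and probes were averaged per gene, as in the study's methods. Beyond them, spots marked as outliers (280 to 370 per array) were left out and repeated spots were averaged per probe. No filter on low values was applied; 17502 of 28890 genes, all 3 cytokines among them, had a probe well above background on all 4 arrays of a group. At most 1 spot per array was saturated, and the number of arrays, 4 a group, limits the precision. Groups came from the labels.

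Differences were fitted with limma 3.58.1 in R 4.3.3 over all 24 arrays (6 group means, moderated test, Benjamini-Hochberg over all genes); figures were drawn with Python 3.11.15 and matplotlib 3.10.9. "At least N-fold" compares the bright group with a dim group whose value on each array was raised, where needed, to that of the weakest probe well above background. Probes were named by RefSeq accession (11506), gene number (8929), the file's gene name (82) or the study's list of added genes (439), and 21133 had no symbol; a gene not found by name may still be on the array. The script was tested on simulated data. Some genes of the lists are not reported here.

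The cytokines and gene lists were chosen with earlier results of these data known. Named were the cytokines and their probes, called members of the receptor, cytokine, signalling, feedback and IL2-induced lists, up to 4 genes with the largest log2 FC per other list and comparison, and the 5 genes most like each cytokine; CD28, the genes around IL2 and IL15, STAT3, IL4R, CSF1R, TAC1 and a few markers with 1 or 2 calls were named beside them after their values were seen. Equal rabbit numbers mark the same animal: the median correlation of deviations from group means was 0.228 within a rabbit (60 pairs of arrays; 0.138 to 0.381 by rabbit) and -0.0753 between rabbits. Alternatives were other normalizations and background corrections, the deposited table, dim probes left out, outlier spots kept, only the compared arrays, rabbit or slide as a block, array weights, trend and robust variances, single probes and each rabbit left out.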

Additional observations from a re-analysis of the deposited data

Results flagged for a closer look

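For 2 of the cytokines the response to PMA-Ionomycin differed between the times by the interaction test. The log2 FC of IL2 changed by -0.904 ± 0.232 from T4 to T24 (adjusted p = 0.0055, limma), with a lower difference from mock at T24 in 4 of 4 rabbits. That call was lost with background-subtracted signals (adjusted p = 0.0977), without rabbit 4 (0.0794) and with probe A_04_P003998 alone (0.0949), and only 1 of 16 mock readings at T4 and none at T24 were well above background. The log2 FC of IL21 changed by -1.77 ± 0.30 (adjusted p = 0.000113, limma), likewise lower in 4 of 4 rabbits, and none of its mock readings was well above background. In the same test 22.5% of all genes were called.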

How the results depend on the processing

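No called difference of IL2, IL15 or IL21 from mock and no called interaction changed its direction under the alternatives run, and the calls of IL2 at both times and of IL21 at T4 after PMA-Ionomycin stimulation held under all of them. With rabbit as a replicate block the log2 FC of IL15 after LPS at T4 (-1.16, adjusted p = 0.0321) and of IL21 after PMA-Ionomycin at T24 (0.55, adjusted p = 0.00451) became called, and the block changed no other call against mock or of an interaction for the 3 cytokines. The IL21 value at T24 was also called with background-subtracted signals (1.38, adjusted p = 0.0483), without dim probes (0.55, 0.0377), with trend and robust variances (0.55, 0.0454) and with probe A_04_P058614 alone (0.58, 0.0496), and leaving out single rabbits gave 0.49 to 0.60 with a call only without rabbit 5 (adjusted p = 0.028). Array weights also made the IL15 value after LPS at T4 a call (-1.47, 0.0364). The IL15 call after PMA-Ionomycin at T4 was lost with slide as a block (-1.17, 0.0595) and with single probes A_04_P002157 (-1.06, 0.083), A_04_P075349 (-1.11, 0.0516) and A_04_P075351 (-1.14, 0.0584), and without single rabbits it ranged from -1.51 to -0.80. At T24 that range was -1.57 to -1.07. The time interaction of IL2 was lost with background-subtracted signals (-1.05, 0.0977) and with probe A_04_P003998 (-0.84, 0.0949), and without single rabbits it ranged from -1.05 to -0.81. For the other 11 pairs of groups the same alternatives, without single probes and without the fit of only the compared arrays, were chosen after seeing the data. No called difference turned there and no call of IL2 changed. With rabbit as a replicate block the IL15 rise from T4 to T24 was called in mock (1.04, adjusted p = 0.0198) and after PMA-Ionomycin (0.87, 0.0265), as was PMA-Ionomycin at T24 over LPS at T4 (0.81, 0.0329), and the last 2 also with background-subtracted signals (1.67, 0.0324, and 1.47, 0.0388). Leaving out single rabbits gave 0.83 to 1.19, 0.69 to 1.12 and 0.59 to 1.07 for these 3, called only without rabbit 5. For the called IL15 rise after LPS it gave 1.27 to 1.60 and for LPS at T24 over PMA-Ionomycin at T4 1.24 to 1.65, both lost without rabbit 1 (adjusted p = 0.0712 and 0.0554) or rabbit 2 (0.0851 and 0.0642). IL21 was higher after PMA-Ionomycin than after LPS at T24 with the replicate block (0.54, 0.0049), background-subtracted signals (1.46, 0.0347), without dim probes (0.54, 0.0394), with trend and robust variances (0.54, 0.0476) and without rabbit 5 (0.62, 0.0204; other rabbits from 0.48). The block also called IL21 lower in mock (-0.38, 0.0499) and LPS (-0.37, 0.0476) at T24 than in LPS at T4, all groups without a detected reading. The block changed no other call of these pairs. The causes were not tested. The background-subtracted scaling moved the median of all genes by 0.22 for LPS at T4, -0.16 for PMA-Ionomycin at T4 and -0.26 at T24. Of all genes, 296 were called for LPS at T4 against 1229 with rabbit as a block and 0 with only the compared arrays or without rabbit 2 or 4 (limma; 3528, 3179 and 2101 at an unadjusted p under 0.05). The count was 354 for LPS at T24 against 47 to 859, and 562 for the interaction of LPS and time against 7 to 2045. IL2 and IL21 lay near background without PMA-Ionomycin, so that low levels could not be ranked.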

Other observations

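When the mean of each rabbit was subtracted before genes were ranked by likeness, ACBD5 (r = 0.919), MITF (0.911), ANXA4 (0.91) and SLC35A5 stayed among the 5 genes closest to IL15, and HNMT, a histamine-degrading enzyme, took the place of SPOPL. For IL21, AREG (0.976), GJA1, FGF2 and IL13 (0.962) stayed and NFKBID (0.957) joined them. For IL2, TAC1 (0.992), PPRC1 and FASLG stayed, joined by ATP1B1 and PINX1. These values describe 24 arrays that share rabbits and groups.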
